A study of Mus musculus with 21 samples.

Results

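The anaphase-promoting complex is a ubiquitin ligase of many subunits, and 10 of its genes were followed here in sorted mouse medulloblastoma cells. Of these, 5 encode proteins that work with the complex without being part of its frame, called cofactors below: the ubiquitin-conjugating enzymes Ube2c and Ube2s, the coactivators Cdc20 and Fzr1, and the inhibitor Fbxo5. The other 5 encode subunits of the complex: Anapc1, Anapc5, Anapc10, Cdc26 and Cdc23. The members were taken as every probe set whose only symbol in the platform annotation was 1 of these 10, which gave 28 of the 45101 probe sets on the array and 10 of 18193 genes. There were 8 probe sets for cofactors and 20 for core subunits. A probe set is a group of short probes for 1 transcript, and its value is a signal intensity with no unit of its own.

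RNA had been taken from mouse tumour cells, with cerebellum given as the source, and hybridised to 21 arrays. Patched (Ptch1) restrains Hedgehog signalling, and its loss gives medulloblastoma from the granule neuron lineage. Cells had been sorted by CD15, a sugar epitope of the cell surface, from tumours that the titles call conventional Patched (6 CD15 positive and 6 CD15 negative arrays) or Math1-GFP (4 and 5 arrays). Math1, also called Atoh1, is expressed by precursors of granule neurons, and GFP is a fluorescent protein. None of the 4 groups is labelled as normal cerebellum. The titles name Patched for the conventional tumours only. The labels give no allele, age or treatment, do not say what the GFP tag marks beyond its name, and the descriptions give conventional Patched tumours as the source of the Math1-GFP samples too, so the groups follow the titles. They do not say whether samples of a group came from separate or pooled animals, so the p-values reflect only how far these samples spread, part of which may be technical.

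The complex attaches ubiquitin chains to mitotic proteins such as cyclins and securin and so marks them for the proteasome. Cdc20 brings it its substrates at the start of anaphase and Fzr1 (also called Cdh1) from late mitosis through the following G1 phase, while Fbxo5 (Emi1) blocks it in S and G2 phase. Ube2c places the first ubiquitins on a substrate and Ube2s extends the chain. In cerebellar granule cells, Fzr1-bound complex is known to act after division as well, on axon growth, and in dividing precursors on exit from the cell cycle.

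The stretch of DNA before the start site is shown for some members because genes of late cell cycle often share short words there. The CHR (cell cycle genes homology region, searched as TTTGAA, with CTTGAA or TTCGAA as variants) is bound by MuvB complexes and the CCAAT box by NF-Y. Both strands were searched in windows from 250 bases before to 50 after the start, in RefSeq promoters of build GRCm38.p6. Of the 10 members, 9 were searched and Cdc23 was left out. Of the 32851 windows of that length, 17.9% held TTTGAA, 14.5% a variant and 37.4% CCAAT. The 250 bases before the start of 3 cofactors and 2 core subunits follow, with each match in capitals. A match reads as TTCAAA or ATTGG where it lay on the other strand, and CCAATTGG in Ube2c is 2 overlapping boxes. The cofactors shown are those whose windows held TTTGAA, so the sequences shown do not represent each group. Ube2s, Fzr1, Anapc5 and Cdc26 are not printed. For Anapc10 the window shown has its CCAAT box after the start, outside the printed bases, and the alternative window has it at -85.
Ube2c: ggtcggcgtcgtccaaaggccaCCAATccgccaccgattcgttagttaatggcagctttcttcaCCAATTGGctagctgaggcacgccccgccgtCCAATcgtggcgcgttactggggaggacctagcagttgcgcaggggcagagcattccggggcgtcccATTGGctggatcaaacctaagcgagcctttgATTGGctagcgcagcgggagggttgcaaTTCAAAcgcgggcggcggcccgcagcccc
Cdc20: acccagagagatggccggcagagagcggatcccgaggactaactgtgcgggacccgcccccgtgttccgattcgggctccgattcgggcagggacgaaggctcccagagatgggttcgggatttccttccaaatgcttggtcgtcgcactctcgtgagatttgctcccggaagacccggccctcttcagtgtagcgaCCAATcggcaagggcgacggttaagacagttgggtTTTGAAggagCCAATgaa
Fbxo5: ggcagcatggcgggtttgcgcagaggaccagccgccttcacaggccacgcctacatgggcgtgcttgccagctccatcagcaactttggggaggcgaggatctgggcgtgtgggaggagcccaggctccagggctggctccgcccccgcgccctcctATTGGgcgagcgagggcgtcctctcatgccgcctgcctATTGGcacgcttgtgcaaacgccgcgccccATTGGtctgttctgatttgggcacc
Anapc1: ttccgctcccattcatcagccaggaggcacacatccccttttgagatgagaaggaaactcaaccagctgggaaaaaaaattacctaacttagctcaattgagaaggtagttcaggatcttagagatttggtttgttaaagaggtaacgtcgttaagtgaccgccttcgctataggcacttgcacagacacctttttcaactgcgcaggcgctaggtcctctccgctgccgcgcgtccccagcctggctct
Anapc10: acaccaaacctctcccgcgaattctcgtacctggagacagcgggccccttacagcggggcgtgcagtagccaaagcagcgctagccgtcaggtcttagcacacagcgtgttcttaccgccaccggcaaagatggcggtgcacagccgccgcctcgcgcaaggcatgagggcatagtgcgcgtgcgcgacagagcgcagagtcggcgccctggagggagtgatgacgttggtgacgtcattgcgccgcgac
These lie at chr2:164769679-164769928 (plus strand), chr4:118437344-118437593 (minus), chr10:5805466-5805715 (minus), chr2:128687396-128687645 (minus) and chr8:79711513-79711762 (plus).

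TTTGAA was found in 3 of the 5 cofactor windows. Its first base lay at position -29 in Ube2c and -18 in Cdc20, counted from -1 for the base before the start, and at 4 bases into the transcript in Fbxo5. Ube2s held the variant TTCGAA at -162. Of the cofactors, Ube2c held 6 CCAAT boxes, Fbxo5 held 3, Cdc20 held 2, Fzr1 held 1 and Ube2s none. By comparison 3.37% of all windows held 3 or more. Among the core subunits searched, which leave out Cdc23, none of 4 held TTTGAA or a variant. Anapc5 held 2 CCAAT boxes, each of 2 alternative windows of Anapc10 held 1, and Anapc1 and Cdc26 held none. No member searched held any of the E2F words TTTGGCGC, TTTCCCGC, TTTGCCGC or TTTCGCGC, which 2.26% of all windows did. A match is a description of these letters, not a binding site, and a missing match concerns this window only.

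All values below are log2(signal + 32) or the deposited signal, and a log2 fold change on this scale understates the change of dim genes. The array medians lay between 22.1 and 32.7, and the number of arrays rather than any read depth limits the precision. A gene was represented by its brightest probe set, and 12367 genes passed a filter on dim probe sets and were tested. All 10 members passed, with 25 of their 28 probe sets. The 3 dim ones, 1430962_at of Ube2s, 1459540_at of Cdc26 and 1443087_at of Cdc23, had signals of at most 26.6, 29.3 and 44.7 on any array and are not used further. Signals of different genes are not compared, since probe sets differ in affinity. Of 12 markers of the granule neuron lineage all 12 passed the filter, and their mean was between 9.815 and 10.8 on every array, in both CD15 fractions. The mean still differed with CD15, by -0.34 to -0.04 (positive less negative) in the 5 pairs of conventional arrays that share a number. In conventional tumours 2 of the 12 were called higher and 2 lower in the test described below, against 377 and 629 of all 12367 genes. Among the conventional arrays, numbers 2 to 5 resembled each other more than they did number 6 and the arrays without a number (mean correlation 0.958 within and 0.928 between these sets). The cofactor calls in conventional tumours are given for each set, and the correlations between genes are not.

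The first comparison set CD15 positive against CD15 negative cells of conventional tumours. All 5 cofactors were higher in CD15 positive cells and none of the 5 core subunits passed the test. In limma, with Benjamini-Hochberg adjustment over all genes, 3.05% of the genes tested were called higher and 8.13% in either direction at an adjusted p of 0.05. The median log2 fold change was 0.57 for the cofactors, 0.14 for the core subunits and -0.02 for all genes. The groups did not overlap for 4 of the 5 cofactors (Ube2c, Cdc20, Fzr1 and Fbxo5), against 1.89% of all genes, and for 0 of the 5 core subunits. In such sorted bulk samples, fewer cells that express a gene and less RNA per cell cannot be told apart.

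Ube2c (1452954_at), which primes substrates, had the largest difference of the 10. Its signal was between 4886 and 7916 with a median of 5865 in the 6 CD15 positive arrays, and between 1658 and 3400 with a median of 2976 in the 6 CD15 negative arrays. Every positive array was above every negative one, and negative arrays 4 and 5 were the lowest, at 2015 and 1658. The log2 fold change was 1.16 ± 0.18 (SE, limma adjusted p = 0.000749), or 2.23-fold. Within the 5 pairs of arrays that share a number, the difference was 0.73 to 1.58.

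Ube2s (1416726_s_at), the chain-extending enzyme, differed by less and its groups overlapped. Its signal was 4430 to 6848 (median 5002) in positive and 2780 to 4639 (median 3265) in negative arrays. Negative arrays 1 and 6, at 4566 and 4639, were the ones that reached into the positive range. The log2 fold change was 0.56 ± 0.13 (adjusted p = 0.012), and after quantile normalization it was 0.38 ± 0.12 and did not pass (adjusted p = 0.0532). Probe sets whose names end in s_at or x_at, like this one, can also detect related transcripts.

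Cdc20 (1439377_x_at), the coactivator of early anaphase, had a signal of 4789 to 6251 (median 5083) in positive and 1689 to 3960 (median 3175) in negative arrays. Positive array 6 stood above the others at 6251, the next being 5171, and negative array 5 was the lowest of all. It differed by 0.82 ± 0.16 in log2 fold change (adjusted p = 0.00353), and 0.77 ± 0.17 without positive array 6. This gene has 3 probe sets, and the brightest gave the smallest difference: 1416664_at was at 1.12 ± 0.18 and 1439394_x_at at 1.11 ± 0.14. In the fit of every probe set all 3 were called, where 5.91% of probe sets were.

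Fzr1 (1419451_at), the coactivator of late mitosis and G1, had a signal of 336.5 to 406.4 (median 360.6) in positive and 187.5 to 302.0 (median 264.5) in negative arrays. The positive arrays lay close together and the negative ones were spread, with array 5 the lowest. The log2 fold change was 0.45 ± 0.11 (adjusted p = 0.0176), or 1.36-fold, the smallest of the cofactors. Without negative array 5 it was 0.37 ± 0.11 and just missed the threshold (adjusted p = 0.0514).

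Fbxo5 (1429499_at), the inhibitor, had a signal of 697.5 to 1104 (median 894.1) in positive and 510.8 to 672.1 (median 594.3) in negative arrays. The lowest positive array, number 1, was only just above the highest negative one. Its log2 fold change was 0.57 ± 0.12 (adjusted p = 0.0048). The inhibitor and the coactivators it blocks were thus higher in the same sorted fraction.

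**Figure D1:**
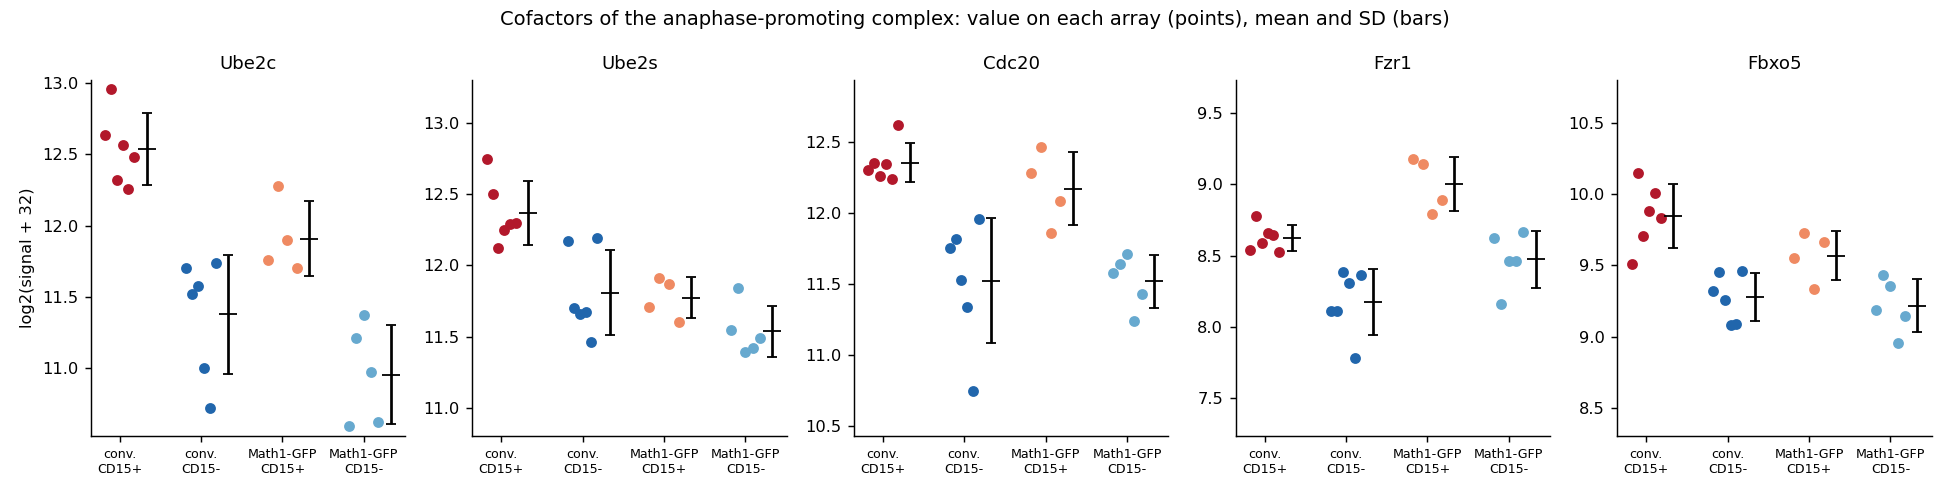
Values of the 5 cofactors as log2(signal + 32) on each of the 21 arrays (points), with the mean and SD of each group (bars), in conventional (conv.) and Math1-GFP tumours and CD15 positive (+) or negative (-) cells; every panel spans the same range on the log2 scale. The conventional CD15 positive points of Ube2c, Cdc20, Fzr1 and Fbxo5 lie above all conventional CD15 negative points, while those of Ube2s overlap.

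The core subunits moved little between the CD15 fractions. Anapc1 (1415680_at), the scaffold on which the other subunits sit, had a signal of 220.4 to 337.3 (median 284.7) in positive and 151.1 to 323.6 (median 215.6) in negative arrays. Negative arrays 2 and 4, at 323.6 and 230.1, were the ones inside the positive range. It differed by 0.29 ± 0.13 in log2 fold change (adjusted p = 0.182), and it passed without negative array 2 (0.39 ± 0.12, adjusted p = 0.0467). Its other 4 probe sets were between -0.14 and -0.08, so the positive value came from the brightest one. Of these, 1444271_at was dim, with signals of at most 39.5 on any array.

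Anapc5 (1433822_x_at), of the platform under the scaffold, had a log2 fold change of 0.12 ± 0.08 (adjusted p = 0.46). Anapc10 (1429376_s_at), which together with a coactivator holds the substrate's degron, was at 0.14 ± 0.09 (adjusted p = 0.356). The 95% intervals, -0.06 to 0.29 and -0.04 to 0.32, leave out changes as large as the measured value of any cofactor. For both genes all their probe sets were positive in this comparison and none was called.

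Cdc26 (1423987_at), a small subunit that steadies its partner Cdc16, had a signal of 887.9 to 1070 in positive and 682.1 to 971.6 in negative arrays. Its log2 fold change was 0.25 ± 0.10 (adjusted p = 0.116), and it was higher in the positive array of 5 of 5 numbered pairs. The other probe sets went the other way, at -0.09 ± 0.13 (1452992_at) and -0.52 ± 0.20 (1456860_at, adjusted p = 0.146 over every probe set), so that the mean of its probe sets was -0.12. Of these, 1456860_at was dim, at 7.3 to 54.4 in positive and 29.3 to 92.0 in negative arrays. Cdc23 (1433430_s_at), one of the repeat-rich subunits that bind coactivators, was at -0.03 ± 0.22 (adjusted p = 0.958), with positive array 6 at 725 against 377.5 to 436.5 in the others.

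**Figure D2:**
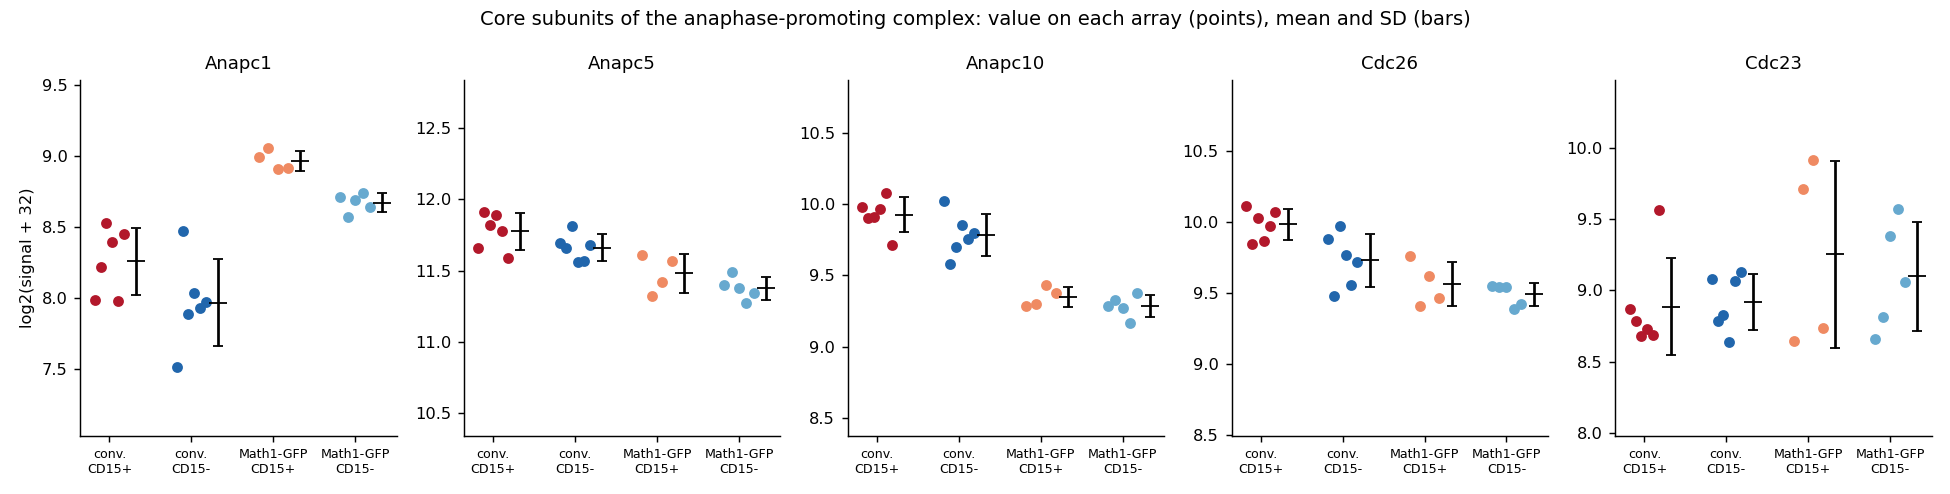
Values of the 5 core subunits as log2(signal + 32) on each of the 21 arrays (points), with the mean and SD of each group (bars), drawn over the same span as the cofactors. Conventional CD15 positive and negative points overlap in all 5 panels, and Anapc1 and Anapc10 separate the Math1-GFP from the conventional arrays in opposite directions.

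Taken per array, the mean of the 5 cofactors was at most 11.35 in conventional CD15 positive arrays, at most 10.74 in CD15 negative ones, and did not overlap between them (means 11.15 and 10.43). The mean of the 5 core subunits was 9.70 to 9.879 against 9.57 to 9.66, so it too was higher in every positive array, by 0.13 to 0.22 within the numbered pairs. Of the other lists, the other core subunits (0.06 to 0.15) and the SCF ligase (0.03 to 0.10) were also higher in 5 of 5 numbered pairs. So were ubiquitin supply and removal (0.02 to 0.20) and the astrocyte list (0.10 to 0.31). The checkpoint inhibitors, the Cdc20 and Fzr1 substrates, mitosis and S phase were too. The neuron, neutrophil and granule neuron lineage lists were higher in 0 of 5. The cofactor mean less the core mean was 1.38 ± 0.141 (SD, n = 6 arrays) in positive and 0.821 ± 0.248 (SD, n = 6 arrays) in negative arrays, and the ranges, 1.206 to 1.614 and 0.385 to 1.083, did not overlap. It was higher in the positive array of each numbered pair, by 0.19 to 1.01, and by 0.45 between the unnumbered arrays. No p is given for these means because the genes were chosen with results known. Among single genes, all 5 cofactors and Cdc26 were higher in the positive array of 5 of 5 numbered pairs, which 13.8% of all genes were. Anapc1, Anapc5 and Anapc10 were so in 4 and Cdc23 in 3.

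**Figure D3:**
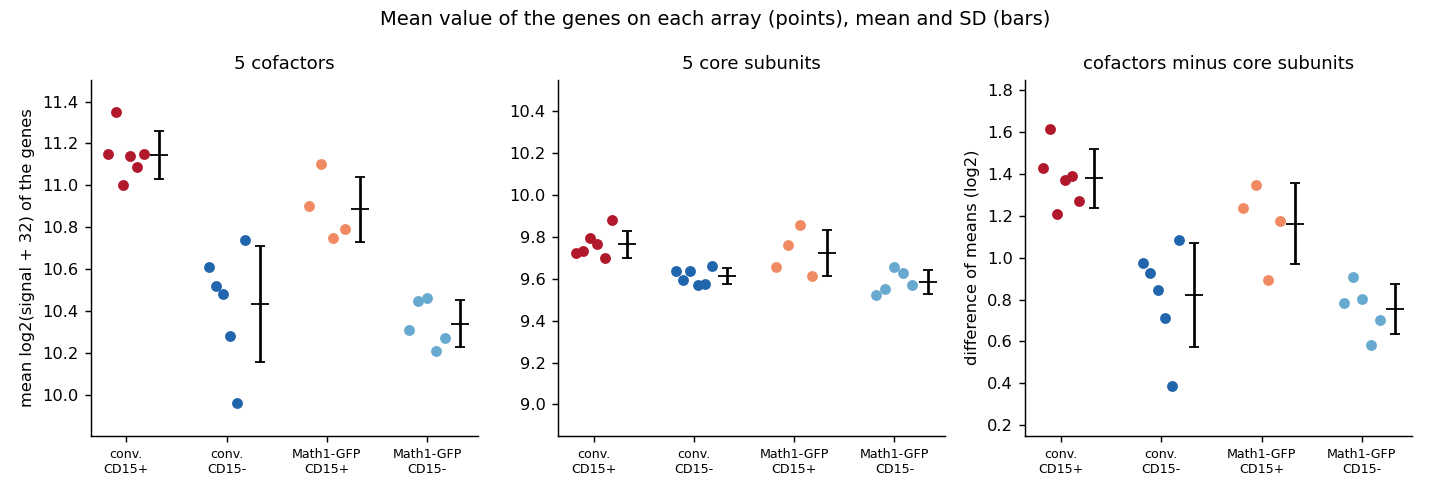
Mean log2(signal + 32) of the 5 cofactors, of the 5 core subunits, and the first less the second, on each array (points), with the mean and SD of each group (bars). The difference in the right panel is 1.38 and 0.821 on average in conventional CD15 positive and negative arrays and 1.163 and 0.755 in those of Math1-GFP tumours.

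The split of the conventional arrays bears on these calls. In numbers 2 to 5 alone, where 7.24% of all genes were called, all 5 cofactors were, with log2 fold changes of 0.52 (Fzr1) to 1.32 (Ube2c). In the unnumbered arrays and number 6 alone, 2 against 2, none was, nor was any of the 12367 genes, although 967 had an unadjusted p under 0.05. There Ube2c was at 0.83 ± 0.27 and Cdc20 at 0.60 ± 0.22, and Fbxo5 at 0.28 ± 0.20. With the array set as a block all 5 were called, as were 11.1% of all genes. Lists of cell type markers also moved with CD15. Whether neuron markers came from the tumour's own granule neuron lineage or from other cells was not tested. The neuron list had 10 of 12 genes called lower, against 629 of all 12367. Its mean was 8.348 to 9.056 in positive against 9.432 to 10.16 in negative arrays (summed signal 7170 to 13100 against 15100 to 31100). All its genes but Nefl passed the filter. The microglia mean was 6.436 to 9.63 against 5.88 to 8.296 (summed signal 1040 to 15500 against 461 to 5880), with 0 of 13 called and only Trem2 below the filter. The part of these markers in the cofactor differences was not tested.

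In Math1-GFP tumours, with fewer arrays, all 5 cofactors were again above 0 and Ube2c again had the largest difference. No member passed, and 0.0404% of all genes did (0.0162% higher). Before adjustment, 4 of 5 cofactors and 0 of 5 core subunits had a limma p under 0.05, as did 1073 of all 12367 genes. The groups did not overlap for 3 of 5 cofactors (Ube2c, Cdc20 and Fzr1) and 1 of 5 core subunits (Anapc1), against 2.54% of all genes in that direction. The medians were 0.53 for cofactors, 0.10 for core subunits and 0.005 for all genes.

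Lists of cell type markers moved with CD15 in these tumours too. The neuron mean was 8.494 to 9.039 in positive against 9.185 to 9.774 in negative arrays (summed signal 8030 to 13600 against 13300 to 21500), with 0 of 12 called. The astrocyte mean was 7.187 to 8.585 against 6.509 to 7.058 (summed signal 1960 to 5320 against 992 to 2310), also without overlap, with 0 of 9 called and Aldh1l1 and Gjb6 below the filter. Positive array 1 stood apart, with the highest astrocyte (8.585), microglia (7.274) and neutrophil (6.76) means of its group. It shared with negative array 2 a high mean of the neuronal substrates described below, 10.37 and 10.51, against 9.637 to 9.983 in the other Math1-GFP arrays. Without positive array 1 the log2 fold change was 1.01 ± 0.24 in Ube2c, 0.61 ± 0.21 in Cdc20 and 0.47 ± 0.14 in Fzr1. It was 0.36 ± 0.15 in Fbxo5 and 0.26 ± 0.17 in Ube2s, and no member passed. The part of these markers in the cofactor differences was not tested.

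Ube2c had signals of 3441, 4948, 3782 and 3298 in the CD15 positive arrays 1, 5, 7 and 9, and of 1508, 2329, 2622, 1972 and 1537 in the CD15 negative arrays 2, 4, 6, 8 and 10. The lowest positive array was well above the highest negative one. Its log2 fold change was 0.96 ± 0.21 (adjusted p = 0.0958). It passed with array weights (adjusted p = 0.0238), with the replicate number of the conventional arrays as a block (0.96, adjusted p = 0.0265; a fit that leaves out both unnumbered arrays) and without conventional CD15 negative array 5 (adjusted p = 0.0394). Neither the block nor that array enters this difference itself. They enter the shared estimate of the spread. The block takes the spread between pairs out of the conventional arrays only. Math1-GFP arrays were not paired, so this spread, and p-values from it, may be too small for them.

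Cdc20 had signals of 4928, 5592, 3682 and 4283 in positive and 3038, 3149, 3320, 2382 and 2721 in negative arrays. Its log2 fold change was 0.65 ± 0.19 (adjusted p = 0.18). Fzr1 had signals of 549.0, 534.2, 412.0 and 443.0 in positive and 363.3, 253.8, 320.5, 321.2 and 375.0 in negative arrays, without overlap. At 0.53 ± 0.13 (adjusted p = 0.134) it ranked 65th of 12367 by p, ahead of Cdc20 at 176. Both coactivators passed with array weights (adjusted p = 0.0472 and 0.0367), where 1.51% of all genes did.

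Fbxo5 overlapped in these tumours, with 719.1, 815.4, 613.9 and 777.6 in positive and 551.9, 659.4, 622.6, 465.4 and 534.3 in negative arrays (0.35 ± 0.14, adjusted p = 0.39). Ube2s was nearest to no difference among the cofactors. Its signals were 3323, 3818, 3717 and 3069 in positive and 2961, 3634, 2650, 2705 and 2840 in negative arrays (0.24 ± 0.16, adjusted p = 0.733). Negative array 4 was the only negative array above any positive one.

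Of the core subunits, taken by their brightest probe sets, Anapc1 was the one whose groups did not overlap. Its signals were 477.9, 499.0, 447.5 and 450.5 in positive and 387.7, 348.0, 381.4, 395.5 and 366.3 in negative arrays. Its log2 fold change was 0.30 ± 0.15 (adjusted p = 0.604), close to that in conventional tumours. The groups overlapped in its other probe sets, which were at -0.05 to 0.21, the highest being the dim 1444271_at. By their brightest probe sets Anapc5, Anapc10, Cdc26 and Cdc23 were between 0.06 and 0.15. Other probe sets of Cdc26 went the other way, 1452992_at at -0.34 ± 0.16, lower without overlap, and the dim 1456860_at at -0.29 ± 0.24. The mean of the Cdc26 probe sets, the dim one included, was -0.19. For Anapc5, 1416906_at was higher without overlap (0.17 ± 0.10). None of these was called in the fit of every probe set. Cdc23 was the most variable member, at 367.9, 808.5, 931.8 and 394.6 in the positive arrays. The cofactor mean less the core mean was 1.163 ± 0.193 (SD, n = 4 arrays) in positive and 0.755 ± 0.121 (SD, n = 5 arrays) in negative arrays. Positive array 7, at 0.893, lay just under the highest negative array, at 0.905, and the others did not overlap. That array also had the highest Cdc23 signal.

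**Figure D4:**
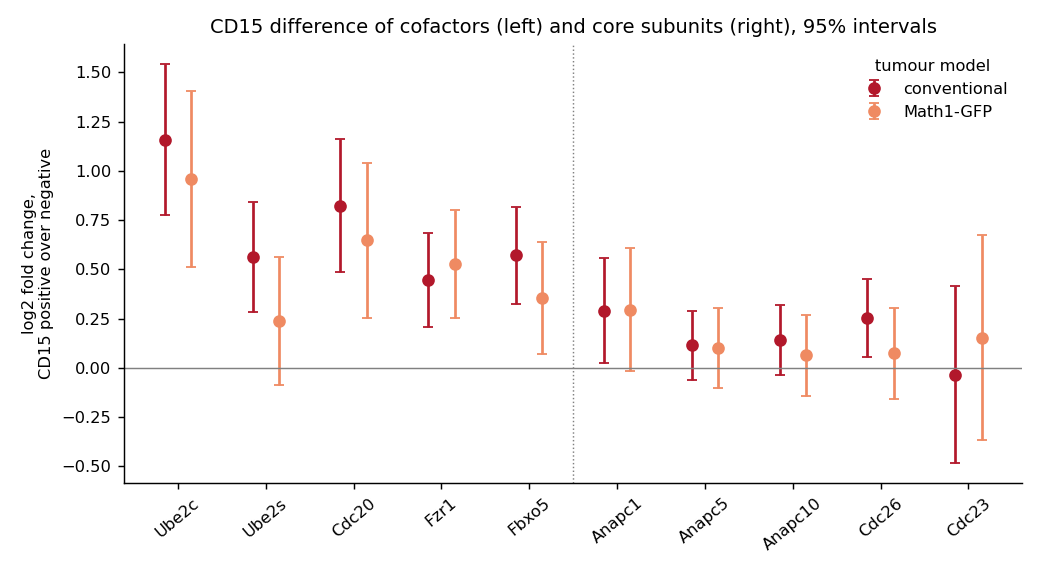
Log2 fold change of CD15 positive over negative cells for the 10 genes, with 95% intervals from the limma fit, in conventional and Math1-GFP tumours. The 5 cofactors on the left lie at 0.24 to 1.16. The intervals of the core subunits on the right reach below or close to 0. In Math1-GFP tumours those of Ube2s (from -0.09) and Fbxo5 (from 0.07) do so too.

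The difference between the CD15 effects of both models was tested as an interaction. No member passed, nor did any gene (0% called, 279 genes at an unadjusted p under 0.05, none of them a member). The values ran from -0.32 ± 0.21 in Ube2s to 0.19 ± 0.33 in Cdc23. The 95% interval of Ube2c, -0.79 to 0.39, still allows a sizeable difference between models, so a like response is not shown. Averaged over both models, all 5 cofactors were called higher, where 3.77% of genes were (9.74% in either direction), and no core subunit was. Ube2c was at 1.06 ± 0.14 (adjusted p = 0.000115), Cdc20 at 0.74 ± 0.12, Fzr1 at 0.49 ± 0.09, Fbxo5 at 0.46 ± 0.09 and Ube2s at 0.40 ± 0.10 (adjusted p = 0.0162). After quantile normalization Ube2s missed the threshold here too (0.28, adjusted p = 0.0504).

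Anapc1 came nearest among the core subunits in this average, at 0.29 ± 0.10 (adjusted p = 0.0635). It passed under 5 other settings and when any of 3 arrays was left out. Among them were quantile normalization (0.33, adjusted p = 0.0273) and the replicate block (0.28, adjusted p = 0.0379). With the mean of its 5 probe sets it was at 0.03. The order of group means on the log2 scale was the same for Ube2c, Fbxo5 and Cdc20. Ube2c stood at 12.54 ± 0.25, 11.91 ± 0.26, 11.38 ± 0.42 and 10.95 ± 0.35 (SD) in conventional CD15 positive, Math1-GFP CD15 positive, conventional CD15 negative and Math1-GFP CD15 negative cells. Fbxo5 stood at 9.85 ± 0.23, 9.57 ± 0.17, 9.28 ± 0.17 and 9.22 ± 0.19. For Cdc20 it was the same, at 12.35 ± 0.14, 12.17 ± 0.26, 11.53 ± 0.44 and 11.52 ± 0.19. Fzr1 had another order, with Math1-GFP CD15 positive cells highest (9.00 ± 0.19), then conventional CD15 positive (8.62 ± 0.09), Math1-GFP CD15 negative (8.48 ± 0.20) and conventional CD15 negative cells (8.18 ± 0.23). For Ube2s the middle groups lay close, conventional CD15 negative cells at 11.81 ± 0.30 and Math1-GFP CD15 positive cells at 11.77 ± 0.15, between 12.37 ± 0.22 and 11.54 ± 0.18. In none of the 5 did the CD15 negative cells of both models differ beyond the test, and the middle groups, which differ in both CD15 and model, were not compared by a test.

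The comparison of Math1-GFP with conventional tumours is confounded. The titles of the models' arrays follow different patterns, and tumour model and the processing of each set cannot be told apart. Markers of other cells moved with it. In CD15 positive cells the microglia list had 4 of 13 genes called lower, a median of -1.51 and a mean of 5.958 to 7.274 in Math1-GFP against 6.436 to 9.63 in conventional arrays (summed signal 536 to 2620 against 1040 to 15500). In CD15 negative cells the mural and fibroblast list had 4 of 8 called lower, a median of -1.32 and a mean of 5.828 to 6.158 against 5.981 to 9.042 (summed signal 224 to 376 against 277 to 4650). The part of these markers in the differences below was not tested. In CD15 positive cells 7 of the 10 members were called, 2 higher and 5 lower, against 23.1% of genes (10.9% higher and 12.2% lower). In CD15 negative cells 3 of the 10 were, 1 higher and 2 lower, against 18.4% of genes (7.91% and 10.5%). By group, 4 of 5 core subunits and 3 of 5 cofactors were called in the positive cells, and 3 of 5 and 0 of 5 in the negative cells. Quantile normalization lowered the count in positive cells from 7 to 3. It also moved the share of higher genes among all those called from 47.2% to 35.3%.

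By their brightest probe sets, Anapc10 had the smallest limma p of the members in both fractions. Its signal was 807.9 to 1048 and 734.5 to 1005 in the conventional positive and negative arrays. In Math1-GFP cells it was 591.9, 598.8, 659.5 and 632.2 in positive and 591.2, 611.2, 587.2, 543.1 and 631.6 in negative arrays. No Math1-GFP array reached any conventional one. The log2 fold change was -0.58 ± 0.10 in CD15 positive (adjusted p = 0.000268) and -0.50 ± 0.09 in CD15 negative cells (adjusted p = 0.000819). Its second probe set, 1429375_at, was also lower, at -0.56 and -0.42.

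Anapc1 went the other way with its brightest probe set, at 0.71 ± 0.14 (adjusted p = 0.00151) and 0.70 ± 0.13 (adjusted p = 0.00132) in the positive and negative cells. Its Math1-GFP arrays were at 348.0 to 499.0 and its conventional ones at 151.1 to 337.3. A second probe set (1417570_at) was called higher too, at 0.72 and 0.54, but 1434444_s_at was at -0.38 and -0.46, not called, and the mean of its 5 probe sets did not pass (0.30, adjusted p = 0.148, and 0.17, adjusted p = 0.41). For 1434444_s_at the conventional arrays themselves fell apart by set. The unnumbered arrays and number 6 were at 175.2 to 210.8, like the Math1-GFP arrays at 176.5 to 295.3, while numbers 2 to 5 were at 321.9 to 601.6.

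Anapc5 had probe sets called in opposite directions. Its brightest, 1433822_x_at, was lower in Math1-GFP cells (-0.30 ± 0.09, adjusted p = 0.0266, and -0.28 ± 0.09, adjusted p = 0.0306), but it was at 0.01 and -0.05 after quantile normalization and was not called when only the groups compared were fitted (adjusted p = 0.0963 and 0.0599). The probe set 1453307_a_at was higher, at 0.59 ± 0.12 and 0.79 ± 0.11 (adjusted p = 0.0013 and 4.65e-05 over every probe set). Its signals were 432.6 to 754.6 in conventional and 934.1 to 1186 in Math1-GFP arrays. These ranges did not overlap, so probe sets of the same gene gave opposite calls. The other 4 were between -0.22 and 0.23 and not called.

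Cdc26 was lower in Math1-GFP positive cells (-0.42 ± 0.11, adjusted p = 0.00829) and at -0.24 ± 0.10 in negative cells (adjusted p = 0.104). Its probe set 1452992_at was lower in both, at -0.88 ± 0.15 and -0.63 ± 0.14, with 111.2, 135.3, 126.5 and 118.2 in the Math1-GFP positive arrays against 173.1 to 334.3 in the conventional ones. Cdc23 did not pass with its brightest probe set (0.37 ± 0.24 and 0.18 ± 0.23), but 1460549_a_at was higher, at 0.64 ± 0.14 and 0.62 ± 0.13. Over every probe set, 26.2% and 23.6% of probe sets were called in these comparisons. Of 18 core probe sets past the filter, 4 were higher and 5 lower in the positive cells, and 4 were higher and 4 lower in the negative cells. Groups of the brightest probe sets did not overlap, in the positive cells, for 2 members higher (Fzr1, Anapc1; 6.26% of all genes) and 3 lower (Ube2s, Anapc10, Cdc26; 9.56%). In the negative cells they did not for 1 higher (Anapc1; 4.03%) and 2 lower (Anapc5, Anapc10; 6.64%).

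Among the cofactors, Ube2s was lower in Math1-GFP positive cells, 3069 to 3818 against 4430 to 6848, without overlap (-0.60 ± 0.15, adjusted p = 0.00745). Ube2c was lower too (-0.63 ± 0.21, adjusted p = 0.0331), but lost its call when any of 6 arrays was left out. After quantile normalization Ube2s was at -0.22 (adjusted p = 0.236) and Ube2c at -0.25 (adjusted p = 0.389). Fzr1 was the one cofactor that was higher (0.38 ± 0.13, adjusted p = 0.0361), but not after quantile normalization (adjusted p = 0.0905), without both unnumbered arrays (adjusted p = 0.0614, and 0.0586 with the replicate block as well) or, for 7 of the arrays, without that array. Cdc20 (-0.18 ± 0.18) and Fbxo5 (-0.28 ± 0.13) did not pass, and among the numbered arrays Fbxo5 did with the replicate block (-0.35, adjusted p = 0.0476) but not without it. The spread in the block fit may be too small for a difference between models, which is not paired. In CD15 negative cells no cofactor passed, the largest being Ube2c at -0.43 ± 0.19 (adjusted p = 0.129), which passed without conventional negative array 5 (-0.56, adjusted p = 0.0386).

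**Figure D5:**
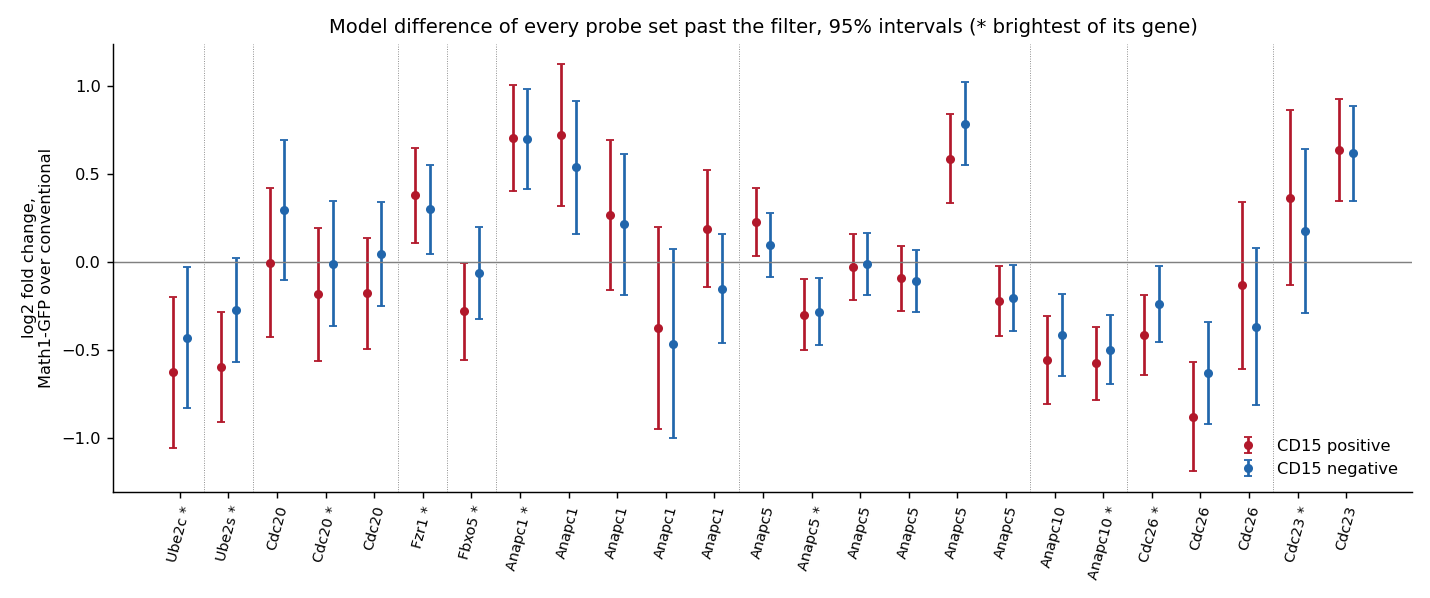
Log2 fold change of Math1-GFP over conventional tumours for each of the 25 probe sets of the members past the filter, with 95% intervals, in CD15 positive and CD15 negative cells; asterisks mark the brightest probe set of a gene. Probe sets of Anapc10 agree below 0, while those of Anapc1, Anapc5 and Cdc26 spread, with Anapc5 from -0.30 to 0.59 in CD15 positive cells.

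The remaining genes of the pathway were taken as lists. For their counts in conventional tumours, the share of all genes called higher was 3.05%. Of the other 9 core subunits, 1 was called higher in conventional CD15 positive cells, Anapc15 (0.44 ± 0.10, adjusted p = 0.0097), which helps release checkpoint proteins from the complex. Their median was 0.12, near that of the 5 above, and 0 of 9 were called within numbers 2 to 5 alone. In the model comparison 5 of 9 were called lower in the CD15 positive cells and 4 of 9 in the negative ones, against 12.2% and 10.5% of all genes. Anapc13 was at -1.15 ± 0.12 and -1.04 ± 0.12, Anapc11, the catalytic RING subunit, at -0.75 ± 0.16 and -0.75 ± 0.15, Anapc15 at -0.74 ± 0.11 and -0.54 ± 0.11, and Anapc16 at -0.55 ± 0.10 and -0.50 ± 0.10. Cdc27 was higher, at 0.46 ± 0.13 and 0.48 ± 0.12. These 5 had the same direction and were called after quantile normalization too, and Cdc16 (-0.47 ± 0.13 in the positive cells) was not (-0.36, adjusted p = 0.0666).

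Among inhibitors and regulators from the spindle checkpoint, most were higher in conventional CD15 positive cells, as Fbxo5 was. Of 6 tested, 4 were called higher, against 3.05% of all genes, with a median of 0.57. Fbxo43, the meiotic relative of Fbxo5, lay below the filter. The 4 called were Trip13, which takes checkpoint complexes apart (0.65 ± 0.11, adjusted p = 0.00103), and the Cdc20-binding proteins Mad2l1 (0.84 ± 0.15, adjusted p = 0.0013), Bub1b (0.87 ± 0.16, adjusted p = 0.0019) and Bub3 (0.50 ± 0.09, adjusted p = 0.0025). In Math1-GFP tumours 0 of 6 passed, at 0.43, 0.47, 0.81 and 0.42. Among the numbered arrays with the replicate block 2 did, a fit in which 1.4% of all genes were called. The spread in that fit may be too small for the unpaired Math1-GFP arrays.

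Transcripts of proteins that Cdc20 or Fzr1 target for destruction were higher as well. Of 18, 14 were called higher in conventional CD15 positive cells and all 18 were above 0, with a median of 0.75. Of all 12367 genes, 377 were called higher and 5845 were above 0. The kinase Plk1 was at 1.01 ± 0.17 (adjusted p = 0.000944), cyclin B2 (Ccnb2) at 1.04 ± 0.17 (adjusted p = 0.001), cyclin A2 (Ccna2) at 0.91 ± 0.17 (adjusted p = 0.00205) and Cdca3 at 1.03 ± 0.19 (adjusted p = 0.00232). In Math1-GFP tumours 0 of 18 passed with a median of 0.67. In that same fit with the replicate block, with the same limit on its spread, 10 did. RNA says nothing here of the amounts of these proteins. Substrates named for neurons (Id1, Id2, Skil, Neurod2 and Tcf4) had 0 of 5 called and a median of -0.23, Neurod2 having the smallest p (-0.65 ± 0.22, adjusted p = 0.0765).

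Genes that supply ubiquitin or remove it had 0 of 7 called, with a median of 0.04 and Usp1, a deubiquitinase, nearest (0.51 ± 0.16, adjusted p = 0.0602). The SCF ligase, the other large ubiquitin ligase of the cell cycle, had 2 of 13 genes called in conventional tumours and a median of 0.03. They were Cks1b (0.61 ± 0.08, adjusted p = 0.000149) and Skp2 (0.48 ± 0.12, adjusted p = 0.0201), the adaptor and the F-box protein that recognise p27, and not its scaffold or RING subunits. Skp2 is also counted among the Fzr1 substrates. General mitotic genes had 17 of 19 called higher, against 3.05% of all genes, with a median of 0.79. They were led by Birc5 (1.00 ± 0.10, adjusted p = 1.1e-05), Dlgap5 (0.85 ± 0.12), Cdc25c (1.04 ± 0.18) and Cdca8 (0.79 ± 0.14). Genes of S phase had 8 of 19 called with a median of 0.45, led by Rrm1 (0.51 ± 0.11), Mcm7 (0.42 ± 0.09), Gins1 (0.54 ± 0.12) and Mcm5 (0.50 ± 0.11), and 4 of 19 after quantile normalization. The cofactor median of 0.57 lay between those of the S phase and mitosis lists, with Ube2c above both and Fzr1 at the S phase value. That order was not tested.

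The genes whose values followed each member most closely over the 21 arrays were found after each group's mean had been removed, as a description in which all points share the scaling of their array. The split of the conventional arrays into sets, and their pairs, were not removed. Their part in these correlations was not tested. Ube2c was followed by Ccnb2 (r = 0.853), Cdc40 (0.83) and Tars (0.823), and Cdc20 by the mitotic kinase Aurkb (0.919), Camkk2 (0.886) and Dlgap5 (0.874). For Fbxo5 they were Hinfp (0.764), the kinetochore gene Spc25 (0.762) and the cohesin protector Sgo2a (0.73). For Fzr1 they were Akap10 (0.793), Socs7 (0.773) and Smad2 (0.714). For Ube2s they were Cnih4 (0.857), Pfdn4 (0.838) and Nxt1 (0.834). As measured, with group means kept, Ube2c was closest to Ccnb2 (0.963), Cks2 (0.961) and Birc5 (0.947), Cdc20 to Tacc3 (0.95), Cenpa (0.946) and Ccna2 (0.935), Fbxo5 to Spc25 (0.929), and Fzr1 to Ckap2 (0.868).

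The same was done for the core subunits. With group means removed Anapc1 was closest to Surf4 (0.84), Gpkow (0.84) and Nck2 (0.839), Anapc5 to the respiratory chain subunit Uqcr10 (0.773), Anapc10 to Tmem60 (0.767), Cdc26 to the heme enzyme Urod (0.847) and Cdc23 to P2rx7 (0.839). As measured Anapc10 was closest to Znhit1 (0.968), Hars (0.959) and Rbis (0.959), Anapc5 to Uqcr10 (0.928) and Anapc1 to Cdyl (0.923).

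Between the members themselves, the 10 pairs of cofactors had correlations of 0.14 to 0.874 as measured, with a median of 0.708, and 0.48 with group means removed. Ube2c, Cdc20 and Fbxo5 were the tightest (0.861 to 0.874), and the lowest pair was Ube2s with Fzr1. The 10 pairs of core subunits ran from -0.806 (Anapc1 with Anapc10) to 0.813 (Anapc5 with Anapc10), with a median of -0.333. With group means removed their median was -0.0974, against 0.48 for the cofactors. These correlations describe the 21 arrays, with the conventional array sets and pairs left in, and carry no test. The 25 pairs of a cofactor with a core subunit had a median of 0.254, and 0.0808 with group means removed.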

How the data were processed

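The 21 arrays, of the Affymetrix Mouse Genome 430 2.0 type, had each measured total RNA of CD15-sorted tumour cells. The authors deposited linear signal intensities, 1 column per array, and the method that summarised the probes of a set is not given in the sources used. In the deposited values every array has a trimmed mean of 150 with 2% left out at each end, so no further scaling was applied. The members and lists were chosen with earlier results of these data known.

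Probe sets were named from the platform annotation. After 64 control probe sets were left out, 34945 of 45101 probe sets had 1 symbol. A gene was represented by its brightest probe set (6122 genes had several), and those under the 40th percentile of mean log2 value (a signal of 15.5) were left out. Group means of log2(signal + 32) were fitted on all 21 arrays with 17 residual degrees of freedom, by lmFit and eBayes of limma (version 3.58.1, under R version 4.3.3). Adjusted p-values are from limma with Benjamini-Hochberg adjustment over the 12367 genes, with a threshold of 0.05, in 6 contrasts. A second fit used all 23211 probe sets past the filter and adjusted over those, and gives the p-values of probe sets other than the brightest. Alternatives that change the values or the filter adjust over the genes they test (12377 after quantile normalization). The scripts were tested on simulated data.

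Named genes are all members, the up to 4 called genes of smallest p in each pathway or cell cycle list (or the 1 of smallest p where none was called), and the 3 genes that correlated best with each member.

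Arrays were grouped by their titles, and unnumbered arrays are called number 1. The titles of Math1-GFP arrays share no number across CD15 fractions, so any pairing there was not fitted. The titles of conventional arrays share numbers across CD15 fractions. Deviations of same-numbered arrays from their group means correlated at 0.583 to 0.757 in the 5 pairs (0.72 for the unnumbered arrays, -0.555 to 0.477 for the 30 other combinations), so these numbers pair the samples. No arrays held identical values. Alternatives were quantile normalization, array weights, a smaller and a larger pseudocount, other filters, averaging the probe sets of a gene, every probe set, only the groups compared, a robust variance trend, the replicate block (numbered conventional arrays only, so both unnumbered arrays are left out) and leaving out each array. Those on the conventional array sets, and without Math1-GFP arrays 1 and 2, were added after the data were seen.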

Additional observations from a re-analysis of the deposited data

Results flagged for a closer look

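Of 52 groups of values examined for a single outlying array, 2 had one, and chance gives about 1 in 20. Both were conventional CD15 positive array 6. Cdc20 was highest there, at 12.62 on the log2(signal + 32) scale against 12.35 in the next array, a gap of 0.712 of the group's range. Without that array its CD15 difference in conventional tumours was 0.77 ± 0.17 (limma adjusted p = 0.00812). Cdc23 was also highest there, at 9.564 against 8.872 in the next array, a gap of 0.781 of the range. Without that array its difference was -0.17 ± 0.21 (limma adjusted p = 0.681). The conventional CD15 negative array of the same number also had the highest Cdc20 and Cdc23 signals of its group, at 3960 and 527.2.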

How the results depend on the processing

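Across 12 planned settings other than leaving out arrays, 560 of 600 values of single genes kept their direction and side of the threshold and 14 reversed. For 21 arrays left out in turn, 1007 of 1050 did and 14 reversed. The number of members called changed by over 1.5 times in the Math1-GFP comparison, from 0 to 3 with array weights and to 1 with the replicate block, and in CD15 positive cells between models, from 7 to 3 after quantile normalization. The replicate block changed no other count by as much. With arrays left out, members called ranged over 0 to 1 in Math1-GFP tumours and 4 to 7 between models in CD15 positive cells. In the unnumbered arrays and number 6 alone, the members called were 0 (conventional), 2 (average) and 4 (models, CD15 positive), and the mean cofactor less core difference was 0.3198 against 0.5591.

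Some values reversed. After quantile normalization Anapc5 was at -0.01999 (conventional) and 0.01453 (models, CD15 positive), and Cdc20 at 0.1933 and 0.2245 between models. With the mean of probe sets, conventional values were -0.0316 (Anapc1), -0.1213 (Cdc26) and 0.03542 (Cdc23). Cdc26 was at -0.1852 (Math1-GFP) and -0.1532 (average), Anapc5 at 0.02947 and 0.04621 and Cdc20 at 0.1117 between models. Cdc20 between models in CD15 negative cells was 0.03709 in numbered arrays with and without the replicate block, 0.1574 in numbers 2 to 5 alone and -0.1639 to 0.07888 with arrays left out. In the unnumbered arrays and number 6 alone, Anapc5 (-0.05806), Anapc10 (-0.0607) and Cdc23 (0.1159, and -0.00379 between models) reversed. With arrays left out, Cdc23 ranged over -0.1702 to 0.007089 (conventional), -0.0665 to 0.3565 (Math1-GFP) and -0.05047 to 0.161 (average), and Fbxo5 between models over -0.1164 to 0.002426. The cause was not tested.

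Of all genes, 1006 were called in conventional tumours, 606 without CD15 negative array 5 and 0 in the unnumbered arrays and number 6 alone, where 250 (average), 818 and 626 (models) were. In Math1-GFP tumours 5 were called, 187 with array weights, 173 with the replicate block, 17 with the larger pseudocount and 0 to 26 with arrays left out. No gene was called in the test between the CD15 differences, and 1 was in numbers 2 to 5 alone. Between models, every probe set gave 6072 and 5473 calls, and array weights 3951 in CD15 negative cells. The number of arrays limits the precision, and detection calls were not used here.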
